A study of Mus musculus with 35 samples.

Results

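The comparison described here is that of the 5 RNA-seq libraries labelled G-NHX9-21FGAA with the 5 libraries labelled Empty, out of 35 libraries in the series (7 conditions with 5 libraries each). Members were chosen by the genotype label alone, and no measured value entered the choice. All cells were hematopoietic stem and progenitor cells (HSPCs) of C57Bl/6 mice of both sexes, that is, bone marrow cells from which cells with lineage markers had been removed (lin-). They were transduced with a lentivirus that also encodes mCherry, sorted, and grown for a week in methylcellulose with myeloid and erythroid growth factors before total RNA was taken. G-NHX9-21FGAA is NUP98-HOXA9 with an N-terminal mEGFP tag in which FG motifs of the C-terminal part of the NUP98 portion were changed to AA, while the HOXA9 homeodomain was kept. Empty carries the vector without the fusion. Cells with a construct were sorted on mCherry and mEGFP, and Empty cells on mCherry, so that the gate differs between the groups. The labels give an age of 8 weeks for all mice of both groups except those of Empty libraries 4 and 5, for which they give 9 and 10 weeks. The study asked how the number of FG motifs in the fusion relates to gene expression and to growth of these cells. Other conditions used below are G-NHX9 (the fusion with all its FG motifs), G-NHX9-midi-21FGAA (which lacks the N-terminal FG motifs of NUP98 in addition to carrying the AA changes) and G-NHX9-DDNA (which has a homeodomain changed so as to lose DNA binding). For these conditions the labels give 8 weeks, except for library 1 of G-NHX9, with 11 weeks.

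NUP98 is a nuclear pore protein, and its N-terminal part is an unstructured stretch of phenylalanine-glycine (FG) motifs that bind one another and nuclear transport receptors. In acute myeloid leukemia, translocations join this part to DNA-binding or chromatin-binding proteins such as HOXA9, a homeobox transcription factor that is active in hematopoietic stem cells and is turned off as myeloid cells mature. NUP98-HOXA9 is known for forming puncta in the nucleus through its FG motifs and for raising the levels of Hox cluster genes and of their cofactor Meis1.

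The counts are reads per gene as whole numbers. Libraries held 37911026 to 66910028 counts in the G-NHX9-21FGAA group and 31559914 to 48480625 in the Empty group. Values below are CPM (counts-per-million), the reads of a gene relative to all reads of its library after TMM scaling, in the order of libraries 1 to 5. Fold changes are log2 of G-NHX9-21FGAA over Empty with their standard error (SE), from edgeR's quasi-likelihood test, and a gene is called when its p-value, adjusted by the Benjamini-Hochberg method over all genes tested, is under 0.05. The labels do not say whether the libraries of a group came from separate mice or cultures, and the methods speak of a triplicate transduction per virus where each condition has 5 labelled libraries, so that the tests measure the spread between these libraries, which may in part be technical. In both groups libraries 4 and 5 correlated better with each other than with any of libraries 1 to 3. In G-NHX9-21FGAA the correlation of log2 CPM across genes was 0.986 to 0.993 among libraries 1 to 3 and 0.992 between libraries 4 and 5. Between the 2 kinds it was 0.978 to 0.987. For Empty these values were 0.987 to 0.992, 0.989 and 0.978 to 0.987. The ranges among libraries 1 to 3 and between the 2 kinds overlapped in G-NHX9-21FGAA and nearly touched in Empty. The 10 most abundant genes took 9.85% to 11.2% of the counts in G-NHX9-21FGAA and 12.4% to 15.4% in Empty, and mitochondrial genes took 1.88% to 2.80% and 2.28% to 4.13%. Xist and Y-linked transcripts were present in all 10 libraries. In bulk RNA of this kind, fewer cells of a type and less RNA per cell cannot be told apart.

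The genes from which the construct is made came first. Mouse Nup98 and Hoxa9 are close in sequence to the human parts of the fusion, and reads from the construct and from the mouse genes cannot be told apart in a count of reads aligned to the mouse genome. Nup98 (chromosome 7, 102119398 to 102210176, mm10) stood at 171, 139, 143, 166 and 199.5 CPM in the G-NHX9-21FGAA libraries and at 120.5, 122, 119, 142 and 144 CPM in the Empty libraries, and was 1.27-fold higher (log2 fold change 0.34 ± 0.12 SE, adjusted p = 0.0314). Hoxa9 (chromosome 6, 52223100 to 52231089) stood at 4.91, 3.83, 5.15, 1.000 and 1.53 CPM and at 1.08, 1.26, 0.693, 0.830 and 1.01 CPM, a 3.33-fold difference (1.74 ± 0.37, adjusted p = 0.000766). Libraries 1 to 3 of G-NHX9-21FGAA were above all Empty libraries in Hoxa9, while library 4 lay within the Empty range and library 5 just above it. In Nup98 the groups overlapped, and it lost its call when any 1 of G-NHX9-21FGAA libraries 4 and 5 and Empty libraries 1 to 3 was left out (adjusted p = 0.0592, 0.102, 0.0506, 0.0618 and 0.0669).

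Of 17166 genes tested, 4660 (27.1%) were called, of which 2515 (14.7% of those tested) were higher and 2145 (12.5%) were lower in G-NHX9-21FGAA. Counts of list members called against Empty are read below against these shares. The median log2 fold change was -0.02 over all genes tested, and the median absolute value over the called genes was 0.61. More than a 2-fold change (an absolute log2 fold change over 1) was found in 802 of the higher and 227 of the lower genes, and over 4-fold (over 2) in 172 and 10. In 2738 of the called genes (1476 higher and 1262 lower) the 5 libraries of one group did not overlap those of the other. Among all 17166 genes tested, called or not, this held for 2891. The split depends on the scaling: with library sizes in place of TMM, 4543 genes were higher and 991 lower, 82.1% higher in place of 54.0%, since the log2 fold changes then moved up by a median of 0.18. Without library 5 of G-NHX9-21FGAA 1326 genes were lower. Directions below are relative to the TMM scale. The number of calls was 871 in libraries 1 to 3 alone and 4213 in libraries 4 and 5 alone, a split of the libraries that was chosen after the data had been seen.

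**Figure D1:**
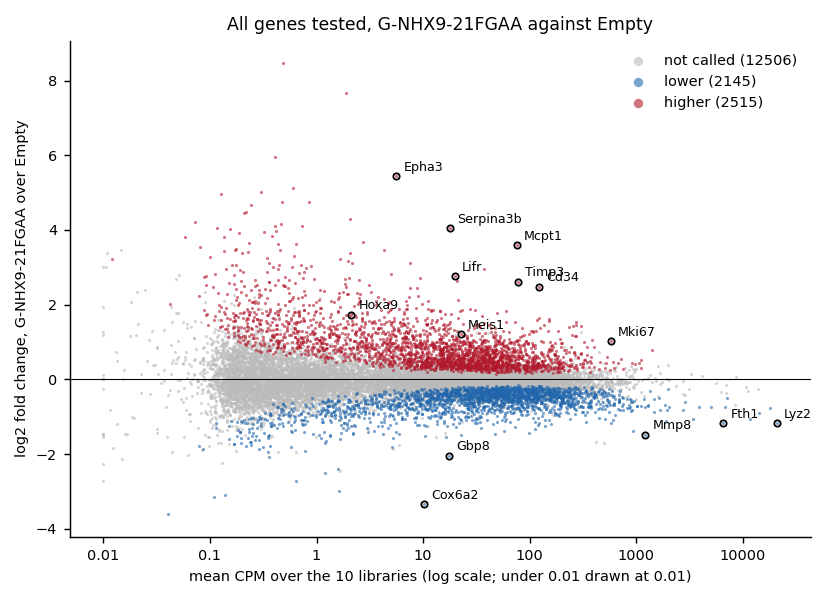
Log2 fold change of G-NHX9-21FGAA over Empty (y axis) against mean CPM over both groups (x axis, log scale) for the 17166 genes tested; each point is a gene, called genes are coloured by direction, and named genes are labelled. The largest changes of abundant genes are upward, with Epha3 at 5.44 at one end and Cox6a2 at -3.35 at the other.

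Where a gene averaged 5 CPM or more and the groups did not overlap, Epha3 (chromosome 16, 63543534 to 63864175), a receptor tyrosine kinase for ephrins, had the largest fold change. Epha3 stood at 9.68, 10.6, 7.63, 15.2 and 11.7 CPM in the G-NHX9-21FGAA libraries and at 0.552, 0.413, 0.0693, 0.0996 and 0.0612 CPM in the Empty libraries, with a mean ± SD of 11.0 ± 2.79 against 0.239 ± 0.228 CPM (n = 5 each, 43.5-fold, log2 fold change 5.44 ± 0.41 SE, adjusted p = 1.12e-10). All G-NHX9-21FGAA libraries were above all Empty libraries. Cd34 (chromosome 1, 194938819 to 194961279), a sialomucin on the surface of stem and progenitor cells, stood at 184, 189.5, 187, 222 and 247 CPM against 44.1, 38.3, 45.5, 34.0 and 22.6 CPM and was 5.57-fold higher (2.48 ± 0.19, adjusted p = 1.12e-10). The lowest G-NHX9-21FGAA library thus held several times the CPM of the highest Empty library. Lifr, which encodes the receptor of leukemia inhibitory factor, stood at 29.8, 33.1, 30.1, 42.0 and 36.9 CPM against 4.22, 5.30, 4.90, 5.31 and 5.72 CPM (6.76-fold, 2.76 ± 0.26, adjusted p = 1.19e-08), again without overlap.

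Serpina3b, an inhibitor of serine proteases, stood at 27.6, 40.6, 30.0, 34.7 and 35.02 CPM against 0.744, 1.95, 2.01, 3.78 and 1.75 CPM (16.6-fold, 4.05 ± 0.46, adjusted p = 2.54e-07). It belongs to a cluster of near-identical copies on chromosome 12, among which reads can be divided by the counting. Within that cluster 3 of 5 genes tested were higher, Serpina3f at 1.47 ± 0.734 CPM in Empty and 3.68 ± 1.66 CPM in G-NHX9-21FGAA and Serpina3g at 86.1 ± 18.5 and 211 ± 23.1 CPM (adjusted p = 0.0288 and 9.03e-05). Igfbp5, which binds insulin-like growth factors, stood at 35.4, 27.5, 30.2, 104 and 135 CPM against 3.19, 11.4, 6.89, 12.4 and 8.60 CPM (7.82-fold, adjusted p = 0.000333). Its highest values were in libraries 4 and 5 of G-NHX9-21FGAA. Timp3, an inhibitor of metalloproteinases, stood at 90.1, 133, 93.7, 208 and 145 CPM against 10.8, 20.6, 25.8, 30.9 and 21.6 CPM (6.12-fold, adjusted p = 6.94e-06). Its exons overlap those of Syn3 on the other strand, and the strand setting of the counting is not given in the sources used here. The other genes of this group were Tmem56 (3.12 on the log2 scale), Clstn3 (2.81), a calsyntenin, Gcsam (2.73), Ehd3 (2.63), which acts in endocytic recycling, and the transcript A730089K16Rik (2.46). Their adjusted p-values were 6.14e-08, 5.3e-08, 8.51e-06, 6.45e-07 and 3.19e-06.

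**Figure D2:**
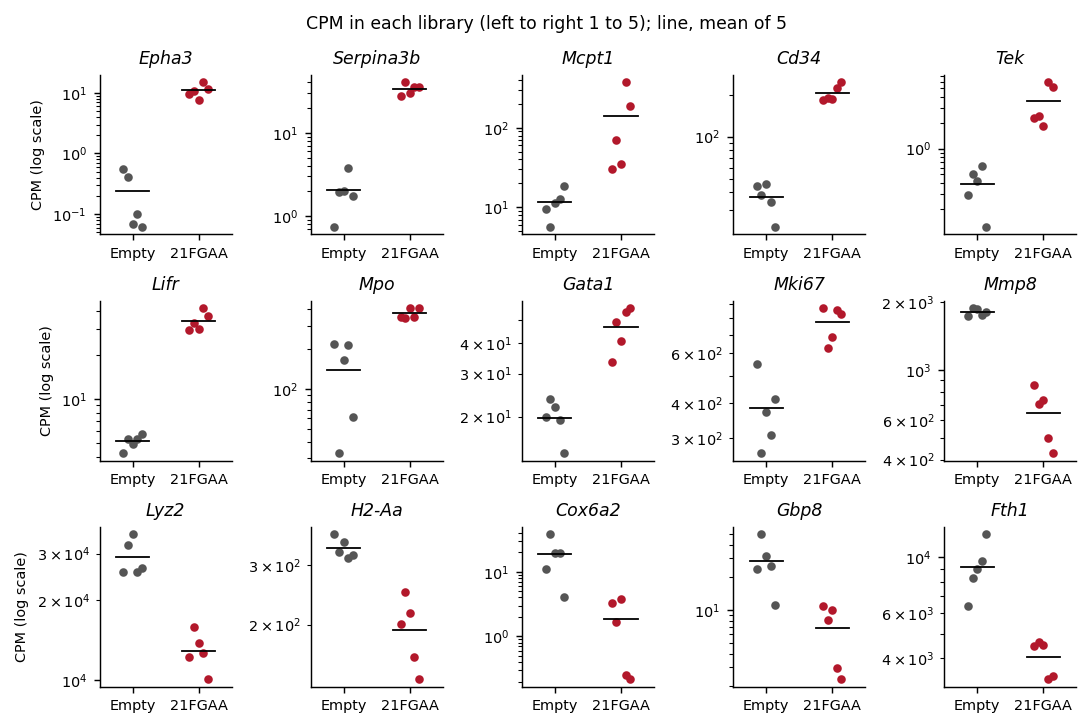
CPM (y axis, log scale) of 15 genes in the 10 libraries, 1 panel a gene, each with its own y axis; points are libraries, 1 to 5 from left to right, and lines are the means of the 5 libraries. Epha3, Cd34 and Lifr are above Empty in every G-NHX9-21FGAA library, while Mcpt1 and Cox6a2 spread widely between libraries 1 to 3 and libraries 4 and 5.

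Downward changes were smaller. Cox6a2 (chromosome 7, 128205435 to 128206387), a subunit of cytochrome c oxidase found mainly in muscle, had the largest fall, at 3.23, 1.68, 3.76, 0.254 and 0.215 CPM in the G-NHX9-21FGAA libraries and 10.9, 38.1, 19.7, 19.6 and 4.07 CPM in the Empty libraries (-3.35 ± 0.78, adjusted p = 0.00171). Its lowest values were in libraries 4 and 5 of G-NHX9-21FGAA. The exons of Cox6a2 overlap Itgad, an integrin gene, on the other strand. Gbp8, a guanylate-binding protein that is induced by interferon, stood at 11.0, 8.22, 10.0, 2.97 and 2.32 CPM against 23.8, 49.9, 31.6, 25.5 and 11.2 CPM (-2.04 ± 0.46, adjusted p = 0.00122), and shares exons with Gbp4 and Gbp9, which makes its count uncertain. Abcb1a, a drug efflux pump, stood at 2.76, 2.15, 2.86, 2.04 and 1.43 CPM against 7.29, 10.9, 10.1, 6.77 and 4.74 CPM and was 3.53-fold lower (adjusted p = 8.43e-07). Mmp8, the collagenase of neutrophil granules, stood at 854, 709, 738, 500.5 and 427 CPM against 1725, 1877, 1863, 1740 and 1803 CPM and was 2.79-fold lower (-1.48 ± 0.23, adjusted p = 2.2e-05). The groups did not overlap in any of these 4 genes. The remaining genes of this group were Sox7 (-1.58), a transcription factor, Ace (-1.54), the angiotensin-converting enzyme, Best1 (-1.53), a chloride channel, Entpd3 (-1.48), an ectonucleotidase, A4galt (-1.46), a glycosyltransferase, Trf (-1.45), the transferrin gene, Kcnn3 (-1.44), a potassium channel, and Atf5 (-1.38), a transcription factor of the stress response. Their adjusted p-values lay between 0.00135 for Sox7 and 0.000245 for Atf5, with 0.000925, 0.000446, 0.00495, 0.000424, 9.03e-05 and 0.000117 for the others in this order.

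By change in mean CPM, the largest fall was that of Lyz2, the lysozyme of macrophages and granulocytes, from 29088 ± 4552 CPM in Empty to 12907 ± 2127 CPM in G-NHX9-21FGAA (mean ± SD, n = 5 each, 2.25-fold lower, adjusted p = 0.000467). Ftl1 and Fth1, the light and heavy chains of the iron store ferritin, fell from 18418 ± 1922 to 9894 ± 2235 CPM and from 9117 ± 2148 to 4062 ± 654 CPM (adjusted p = 0.000567 and 1.9e-05), and Psap, a lysosomal protein, fell from 15688 ± 2930 to 7512 ± 1485 CPM (adjusted p = 0.000481). The libraries were depleted of ribosomal RNA, and the mitochondrial ribosomal RNA mt-Rnr2 fell from 22921 ± 7157 to 13536 ± 2158 CPM (adjusted p = 0.011). The largest rises were those of Cpa3, the carboxypeptidase of mast cells (1036 ± 460.2 to 1801 ± 303 CPM, adjusted p = 0.0144), and of Calr, a chaperone of the endoplasmic reticulum (912 ± 225 to 1320 ± 202 CPM, adjusted p = 0.013). Next came Mki67, the proliferation antigen Ki-67 (382 ± 111 to 775 ± 109.9 CPM, adjusted p = 0.00102), and the glycolytic enzymes Ldha (895 ± 149.8 to 1214 ± 260.3 CPM, adjusted p = 0.0108) and Eno1 (825 ± 189 to 1106 ± 275 CPM, adjusted p = 0.0497). Eno1 lost its call without G-NHX9-21FGAA library 2, 4 or 5 or Empty library 2, 3 or 4 (adjusted p = 0.204 without G-NHX9-21FGAA library 4), and Ldha without G-NHX9-21FGAA library 4 (0.0558). Ferritin genes have many processed copies in the genome, so that their counts are uncertain.

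Hox cluster genes stood at low levels in both groups. Of 39 Hox genes, 21 passed the filter on low counts. Of these, 7 were higher (Hoxc6 and, of the A cluster, Hoxa2, Hoxa3, Hoxa5 to Hoxa7 and Hoxa9) and Hoxb8 was lower, against 14.7% and 12.5% of all genes tested. The other 13 did not pass the threshold, and the median log2 fold change of the 21 was 0.39. The summed level of all 39 genes, tested or not, was 19.5, 17.6, 20.3, 9.97 and 11.98 CPM in the G-NHX9-21FGAA libraries and 6.98, 9.41, 8.32, 9.43 and 9.61 CPM in the Empty libraries. Each G-NHX9-21FGAA library was above each Empty library, although its libraries 4 and 5 were only just so. Hoxa5 stood at 1.72, 1.70, 1.51, 0.732 and 1.39 CPM against 0.192, 0.0918, 0.139, 0.266 and 0.214 CPM (7.90-fold, 2.98 ± 0.33, adjusted p = 1.86e-07). Hoxa7 stood at 4.29, 3.58, 4.76, 1.10 and 1.22 CPM against 0.408, 1.24, 0.370, 0.365 and 0.520 CPM (2.33 ± 0.40, adjusted p = 7.41e-05), and overlaps the antisense gene Hoxaas3. Libraries 4 and 5 of G-NHX9-21FGAA were just below the highest Empty library in Hoxa7, so that the groups overlapped. Hoxa3 had means of 1.22 ± 0.462 and 0.169 ± 0.0862 CPM (adjusted p = 2.07e-05). Hoxa10 stood at 0.0782 ± 0.0702 and 0.0634 ± 0.0751 CPM and was not called (adjusted p = 0.904). Counts of this kind are small, and with a mean of at least 1 CPM required over the compared conditions 2 of the Hox genes were higher.

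HOX proteins bind DNA together with TALE homeobox proteins. Of 10 such genes tested 5 were higher and 3 were lower (median 0.51), against 14.7% and 12.5% of all genes. Meis1, a partner of HOXA9 in leukemia, stood at 30.0, 29.0, 27.4, 31.9 and 40.0 CPM in the G-NHX9-21FGAA libraries and 13.4, 15.3, 15.8, 14.5 and 9.30 CPM in the Empty libraries (2.32-fold, 1.21 ± 0.18, adjusted p = 1.15e-05), without overlap of the groups. Its exons overlap Gm37818 on the same strand and Gm16140 on the other. Pbx3, another partner, stood at 10.1, 8.93, 8.22, 11.6 and 12.9 CPM against 6.86, 5.35, 6.42, 7.40 and 6.09 CPM (1.61-fold, 0.69 ± 0.14, adjusted p = 0.000438). Pbx4 and Tgif2 were higher (1.502 and 1.32), and Pbx2 and Meis3 were lower (-0.45 and -0.55). Flt3, a receptor kinase of progenitors and of leukemia cells that the study follows, was near the detection limit at 0.298, 0.311, 0.254, 0.225 and 0.334 CPM against 0.0960, 0.253, 0.162, 0.332 and 0.0918 CPM and was not called (adjusted p = 0.206). The ribosomal protein genes that the study follows were likewise not called, Rps12 at 683 ± 47.5 against 678 ± 114 CPM and Rpl12 at 674 ± 32.5 against 634 ± 121 CPM (adjusted p = 0.955 and 0.641).

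Several regulators of stem cells and of leukemia were higher, 8 of 28 tested (14.7% of all genes), with a median of 0.33. Without TMM 13 of them were higher, and in libraries 1 to 3 alone 5. Myb, which keeps progenitors dividing, stood at 82.2, 70.9, 79.0, 95.4 and 123 CPM against 41.0, 23.3, 34.7, 32.7 and 22.8 CPM (2.92-fold, 1.54 ± 0.17, adjusted p = 2.08e-07), without overlap. Mef2c, a factor of lymphoid and myeloid progenitors, stood at 63.5, 67.6, 59.4, 59.5 and 58.4 CPM against 27.1, 26.6, 29.9, 23.6 and 21.5 CPM (2.39-fold, adjusted p = 3.24e-06). Mecom, which encodes the leukemia protein EVI1, stood at 3.49, 3.06, 2.82, 6.78 and 4.202 CPM against 1.49, 1.31, 1.502, 1.53 and 0.704 CPM (1.64 ± 0.31, adjusted p = 0.000243). These 3 genes were higher in every G-NHX9-21FGAA library than in any Empty library. Erg, Fli1, Gfi1, Zfp521 and Lin28b completed the group of higher genes (0.67, 0.60, 1.000, 1.10 and 2.38), whereas Myc (0.42), Runx1 (0.28) and Bmi1 (0.18) did not pass the threshold (adjusted p = 0.105, 0.469 and 0.481).

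Surface markers of stem and progenitor cells moved in both directions, with 6 of 16 higher and 3 lower (14.7% and 12.5% of all genes). Beside Cd34, Tek, the receptor of angiopoietins on stem and endothelial cells, stood at 2.25, 2.36, 1.82, 5.97 and 5.25 CPM against 0.288, 0.505, 0.416, 0.631 and 0.122 CPM (8.97-fold, 3.17 ± 0.41, adjusted p = 2.25e-06). Kit, the receptor of stem cell factor, stood at 127, 136, 142, 218 and 226 CPM against 87.3, 72.2, 88.2, 95.5 and 73.6 CPM (2.04-fold, adjusted p = 0.00299). Both genes were highest in libraries 4 and 5 of G-NHX9-21FGAA. Slamf1 (CD150) was also higher (1.17), while Cd93, Il7r and Alcam were lower (-0.73, -0.76 and -0.43). Cd27 was called from few reads (0.356 ± 0.219 against 0.0185 ± 0.0301 CPM). Ly6a, Procr and Eng were not called (-0.26, 0.22 and -0.0038), so that the group did not move as a whole.

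Primary granules are the first granules that form in promyelocytes, and all 6 of their genes tested were higher (14.7% of all genes), with a median of 1.41. The summed level of all 7 genes listed, tested or not, was 1023, 1167, 1182, 1070 and 1066 CPM in the G-NHX9-21FGAA libraries and 644, 182, 473, 526 and 247 CPM in the Empty libraries, without overlap. Mpo, myeloperoxidase, stood at 352, 346, 408, 352 and 409 CPM against 217, 32.8, 164, 215 and 61.9 CPM (2.7-fold, 1.43 ± 0.38, adjusted p = 0.00491). Ctsg, Elane and Prtn3, the serine proteases of these granules, had means of 228 ± 26.5, 163 ± 20.1 and 123 ± 29.3 CPM against 73.7 ± 29.3, 67.0 ± 35.6 and 47.0 ± 28.1 CPM (adjusted p = 0.000122, 0.0243 and 0.00652). Ms4a3 and Cst7 rose by 1.55 and 1.05 on the log2 scale. Exons of Prtn3 overlap Plppr3 on the other strand. Of the 6 genes, 2 were called in libraries 1 to 3 alone, and in libraries 4 and 5 alone 3, with medians of 1.43 and 1.53.

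Genes of later neutrophils did not move with them. Of 22 tested, Mmp8 and Retnlg were lower (-1.48 and -1.22) and the other 20 were not called, with a median of -0.04. S100a8 and S100a9, the calprotectin subunits, stood at 3416 ± 781 against 3090 ± 499 CPM and 4268 ± 987 against 4013 ± 615 CPM (adjusted p = 0.728 and 0.83). Ly6g, which encodes the neutrophil part of the Gr1 antigen, stood at 35.9, 30.4, 35.6, 11.6 and 12.1 CPM against 21.1, 21.6, 24.3, 27.1 and 33.9 CPM and was not called (adjusted p = 0.966). Its values in G-NHX9-21FGAA were lowest in libraries 4 and 5.

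Erythroid genes were higher in number and in level, 21 of 28 tested, with the other 7 not called and a median of 1.29. The summed level of the 28 genes was 877, 1517, 1007, 2664 and 2096 CPM in the G-NHX9-21FGAA libraries and 1120, 667, 580.3, 447 and 639 CPM in the Empty libraries. Libraries 4 and 5 of G-NHX9-21FGAA were the highest, and libraries 1 and 3 of G-NHX9-21FGAA lay below Empty library 1. Gata1, the transcription factor that directs red cell and megakaryocyte formation, stood at 33.5, 49.0, 40.9, 53.7 and 55.8 CPM against 19.9, 23.6, 21.9, 19.3 and 14.1 CPM (2.35-fold, 1.24 ± 0.22, adjusted p = 0.000117). Its target Klf1 stood at 9.16, 13.4, 10.8, 18.4 and 20.4 CPM against 7.80, 9.41, 5.11, 3.09 and 3.21 CPM (2.51-fold, adjusted p = 0.00561). Car2, a carbonic anhydrase of red cells and other cells, stood at 144, 162, 148, 226 and 244 CPM against 84.4, 80.5, 55.7, 40.5 and 34.1 CPM (3.13-fold, 1.64 ± 0.30, adjusted p = 0.000156). The largest log2 fold changes were those of Trim10 (2.00) and Tspan33 (1.81), followed by the membrane skeleton and blood group genes Epb42, Rhag and Kel (1.56, 1.52 and 1.51). Without G-NHX9-21FGAA library 4, Trim10, Epb42 and Kel were no longer called (adjusted p = 0.0769, 0.0992 and 0.0531). The globin genes were divided, with Hba-a1 and Hbb-bt called (1.19 and 1.39) and their near-identical copies Hba-a2 and Hbb-bs not (1.35 and 1.26, adjusted p = 0.0669 and 0.102).

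The number of erythroid calls differed with the libraries fitted. In libraries 1 to 3 alone edgeR called none of the 28 genes (7 higher with an unadjusted p under 0.05, median 0.46), in libraries 4 and 5 alone 24 (median 2.29), and in the libraries labelled 8 weeks 10. Over all genes these fits called 871, 4213 and 3293, against 4660 in all libraries, where 14.7% of all genes tested were higher. The difference between the library numbers was not tested. Transcription factors of erythroid cells and megakaryocytes were higher in 9 of 13 cases (median 0.67, and 4 in libraries 1 to 3 alone), among them Gfi1b at 11.7, 21.7, 16.2, 18.8 and 20.1 CPM against 6.64, 7.23, 7.07, 6.87 and 3.12 CPM (adjusted p = 5.14e-06), Bcl11a (1.57), Tal1 (0.67) and Zfpm1 (0.96). Heme synthesis had 4 of 12 genes higher (with Abcb10, Cpox and Alad at 1.17, 0.98 and 0.60), against 8 without TMM, 1 in libraries 1 to 3 and 7 in libraries 4 and 5. Of the megakaryocyte and platelet genes, 5 of 17 were higher (Selp, Rab27b, Gp5 and Gp1bb among them), or 3 without Empty library 1 and 8 without G-NHX9-21FGAA library 1, while Pf4, Ppbp and Itga2b were not called (0.74, 0.86 and 0.56).

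Mast cells and basophils are a further product of these cultures. Of 11 of their protease genes 4 were higher (14.7% of all genes), with a median of 0.41. Mcpt1, a chymase of mucosal mast cells, stood at 30.5, 69.5, 34.97, 378 and 185.3 CPM against 9.57, 5.67, 11.3, 12.8 and 18.4 CPM (12.1-fold, 3.60 ± 0.65, adjusted p = 0.000137). Mcpt2, its neighbour and near copy, stood at 303, 506, 298, 541 and 344 CPM against 166, 127, 163, 150.5 and 119.8 CPM (1.46 ± 0.29, adjusted p = 0.00037). Libraries 4 and 5 of G-NHX9-21FGAA had the highest values of Mcpt1. Cpa3 and Tpsg1 were also higher (0.80 and 0.73), whereas the proteases of connective tissue mast cells were not called, Mcpt4 at 0.06, Cma1 at 0.24 and Tpsb2 at -0.21, nor was the basophil protease Mcpt8 (0.41). Of 19 receptors and regulators of these cells, 9 were higher and 2 were lower, against 2 higher in libraries 1 to 3, 10 in libraries 4 and 5 and 6 in the libraries labelled 8 weeks. Ms4a2, the beta chain of the IgE receptor, stood at 216, 173, 198, 295 and 254 CPM against 122, 79.1, 98.0, 53.6 and 33.7 CPM (1.56 ± 0.27, adjusted p = 9.03e-05), and Slc18a2, which loads amines into granules, at 193, 154, 172, 236 and 242 CPM against 88.2, 64.0, 93.1, 76.7 and 41.4 CPM (1.46 ± 0.26, adjusted p = 0.000115). Gata2, Fcer1a and Il1rl1 were higher (0.73, 0.97 and 0.86), and Cd63 and Fcer1g, which macrophages also express, were lower (-0.39 and -0.65). Eosinophil genes were called in 1 of 10 cases, Il5ra at 0.93, with Prg2 and Epx at 0.20 and 0.23, not called.

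Genes of monocytes and macrophages moved the other way. Of 29 tested, 14 were lower (12.5% of all genes) and Cx3cr1 was higher, with a median of -0.50. The summed level of the 29 genes, most of it Lyz2, was 22817, 27536, 24190, 22114 and 17422 CPM in the G-NHX9-21FGAA libraries and 40989, 50134, 55697, 40475 and 41216 CPM in the Empty libraries, without overlap. Lyz2 stood at 12260, 15860, 13750, 12610 and 10050 CPM against 25450, 32330, 35480, 25650 and 26540 CPM (-1.17 ± 0.24, adjusted p = 0.000467). Ctss, a lysosomal protease of antigen-presenting cells, stood at 2380, 2738, 2456, 1993 and 1547 CPM against 4021, 5329, 5623, 4232 and 4165 CPM (2.10-fold lower, adjusted p = 0.000292), and Cd68, a lysosomal membrane protein of macrophages, at 452, 516, 473, 406 and 319 CPM against 816, 973, 972, 735 and 707 CPM (1.94-fold lower, adjusted p = 0.000792). In all 3 genes the lowest Empty library was above the highest G-NHX9-21FGAA library. Trem2, Mpeg1 and Gpnmb were lower (-0.91, -0.87 and -0.72), as were Csf1r, the receptor of macrophage colony-stimulating factor, and Adgre1, which encodes F4/80 (-0.47 and -0.57). Cd14, Ccr2 and Mrc1 were not called (-0.26, 0.03 and -0.44). Cx3cr1, a chemokine receptor of monocytes, stood at 2.53, 2.77, 2.88, 3.28 and 4.63 CPM against 1.01, 0.482, 0.462, 0.398 and 0.490 CPM (adjusted p = 1.96e-05). Of the 29 genes, 4 were lower in libraries 1 to 3 alone and in libraries 4 and 5 alone 10, with medians of -0.50 and -0.47.

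MHC class II genes, which present antigen on macrophages and dendritic cells, were lower in 7 of 11 cases (median -0.61). Their summed level was 951, 1290, 1128, 821 and 717 CPM in the G-NHX9-21FGAA libraries and 1736, 1485, 1607, 1369 and 1552 CPM in the Empty libraries, without overlap. H2-Aa stood at 200.4, 249, 217, 161 and 138 CPM against 369.7, 328, 350.3, 315 and 321 CPM (1.74-fold lower, -0.80 ± 0.15, adjusted p = 0.000279). H2-Eb1, H2-Ab1 and the invariant chain Cd74 fell with it (-0.77, -0.68 and -0.61), while their activator Ciita did not pass the threshold (-0.27, adjusted p = 0.34). Of the 11 genes, 1 was called in libraries 1 to 3 alone, and in libraries 4 and 5 alone 7. Dendritic cell genes were lower in 4 of 16 cases (Cd86, Xcr1, Cd83 and Irf4) and higher for the chemokine Ccl17 (1.84). Of all genes tested 12.5% were lower and 14.7% higher.

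CD11b and Gr1 served the study as surface markers of myeloid cells. The main Itgam entry, which encodes CD11b, stood at 247, 200.5, 200.4, 159 and 122 CPM against 324, 291, 306, 239.6 and 225 CPM (-0.58 ± 0.19, adjusted p = 0.0251), and its partner chain Itgb2 at 1134, 1175, 1132, 818 and 709 CPM against 1665, 1717, 1652, 1480 and 1441 CPM (-0.68 ± 0.14, adjusted p = 0.000622). Both were lower in G-NHX9-21FGAA, with groups that overlapped for Itgam. The call of Itgam was lost without G-NHX9-21FGAA library 4 or 5 or Empty library 1, 2 or 3 (adjusted p 0.0523 to 0.121). The Ly6c genes, which the Gr1 antibody also binds, were not called, with Ly6c2 at 343, 398, 372, 452 and 312 CPM against 307, 251, 326, 311 and 314 CPM (adjusted p = 0.135) and Ly6c1 at 0.260 ± 0.113 against 0.249 ± 0.0543 CPM (adjusted p = 0.917). Of 20 transcription factors of the myeloid lineage, 11 were lower (12.5% of all genes) and 2 were higher (14.7%), with a median of -0.44. Those of monocytes and macrophages, Klf4, Irf8, Irf5 and Spi1 (PU.1), were lower, with log2 fold changes of -0.93, -0.69, -0.41 and -0.46, as were Cebpa and Cebpb with -0.31 and -0.49. Gfi1 and Cebpe, which act in the granulocyte line, were higher (1.000 and 0.59). Among 25 cytokine receptors, 11 were lower, Csf3r, Csf2ra and Il6ra among them (-0.77, -0.77 and -0.79), and 6 were higher, with Epor and Il2ra at 1.15 and 1.38. Without G-NHX9-21FGAA library 5, 5 and 3 of these receptors were lower and higher, and 7 of the transcription factors were lower.

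**Figure D3:**
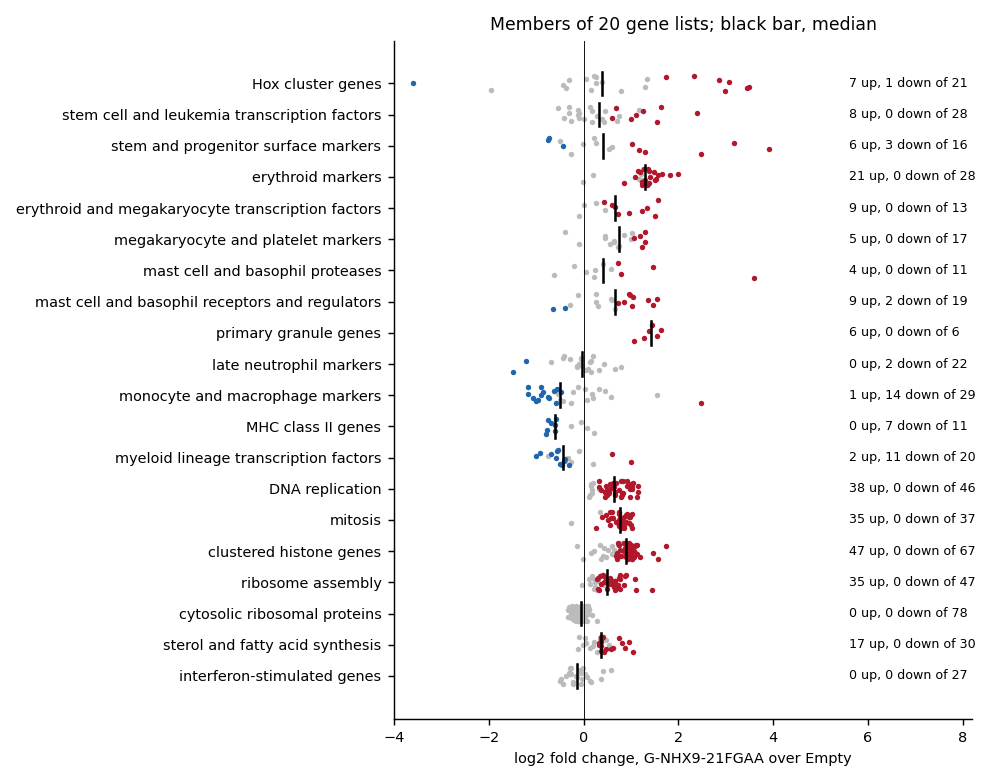
Log2 fold change of G-NHX9-21FGAA over Empty (x axis) of the members of 20 gene lists; each point is a gene, coloured where it is called higher or lower and grey otherwise, the black bar is the median of the list, and the counts of members called are on the right. Primary granule and erythroid genes stand highest, and monocyte and macrophage and MHC class II genes are below 0.

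Most genes of DNA replication and mitosis, and most clustered histone genes, were higher. Of 46 genes of DNA replication 38 were higher (median 0.63), of 37 genes of mitosis 35 (median 0.77), and of 67 histone genes of the clusters 47 (median 0.89), against 14.7% of all genes. The summed level of the mitosis genes was 3662, 3380, 3357, 3741 and 3805 CPM in the G-NHX9-21FGAA libraries and 2929, 1498, 2076, 1720 and 2139 CPM in the Empty libraries, without overlap. Empty library 1 was the highest of its group. For DNA replication the sums were 2506, 2805, 2586, 3135 and 3295 CPM and 2314, 1599, 1891, 1630 and 1812 CPM, also without overlap. Mki67 stood at 872, 630.0, 684, 855 and 832 CPM against 552, 264, 372, 308 and 412 CPM (2.03-fold, 1.02 ± 0.22, adjusted p = 0.00102). Cdc20, which activates the anaphase-promoting complex, stood at 44.4, 56.5, 50.6, 56.5 and 65.5 CPM against 38.5, 21.8, 25.7, 22.6 and 25.2 CPM (1.03 ± 0.21, adjusted p = 0.00043), and its exons overlap Elovl1 on the other strand. Mcm5, a subunit of the replicative helicase, stood at 89.7, 125, 105, 149 and 152 CPM against 88.1, 48.3, 61.6, 53.2 and 54.8 CPM (2.03-fold, 1.02 ± 0.18, adjusted p = 0.000115). Tyms, thymidylate synthase, stood at 30.8, 36.6, 33.5, 49.4 and 54.2 CPM against 26.1, 20.9, 18.3, 15.3 and 18.8 CPM (1.04 ± 0.18, adjusted p = 9.1e-05).

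The 2 genes of mitosis that edgeR did not call were Pttg1 (-0.26) and Kif23 (0.33). Of the 37 genes, 1 was lower with an unadjusted p under 0.05. DESeq2 and the fit with the library number as a block each called 1 lower. Beside Mcm5 and Tyms, Pole, Orc1 and Dut had the largest rises of the replication genes (1.15, 1.14 and 1.13). Regulators of G1 moved less, with 6 of 21 higher, among them Ccne2 (0.81) and Cdk4 (0.39), and the inhibitor Cdkn1a lower (-0.50). Ccnd1, Ccnd2 and Ccnd3, the D-type cyclins, were not called (-0.18, 0.36 and -0.09). Hist1h2bh stood at 50.1, 75.1, 45.1, 73.7 and 67.0 CPM against 32.4, 28.6, 35.6, 23.0 and 22.1 CPM (1.13 ± 0.27, adjusted p = 0.00212), and histone genes are near copies of one another, among which reads can be divided. In libraries 1 to 3 alone, edgeR called none of the mitosis genes (33 higher with an unadjusted p under 0.05), 8 of the replication genes and 1 of the histone genes, with medians of 0.68, 0.42 and 0.65. In libraries 4 and 5 alone the counts were 25, 37 and 33, with medians of 0.92, 0.95 and 1.30.

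Since members of these lists moved together, their promoters were read, as the 250 bases before the transcription start that RefSeq gives for GRCm38.p6 (27025 promoters in all). The letters searched on both strands were CCAAT (bound by NF-Y), TTTGAA (a cell cycle homology region), AGATAA (bound by factors such as GATA1) and the E2F site in the forms TTCGCGC, likewise TTGGCGC, likewise TTCCCGC and lastly TTGCCGC, whose matches can overlap. Of the promoters found for the genes tested, CCAAT was in 24 of 30 (80.0%) for mitosis against 34.5% of all promoters, and TTTGAA in 10 of 30 (33.3%) against 16.3%. CCAAT was also in 53.8% of the promoters of replication genes and 52.4% of erythroid promoters. An E2F site was in 14 of 39 (35.9%) promoters of replication genes against 7.97% of all and 8 of 42 (19%) of ribosome assembly genes, and AGATAA in 8 of 21 (38.1%) erythroid promoters against 10.3%. A match describes the letters and is no measure of binding. For comparison, in the promoters of 20 monocyte and macrophage genes, which were lower in part, CCAAT was in 40%, TTTGAA in 25%, an E2F site in 5% and AGATAA in 15%. Shown here are 2 genes of each list among those with the largest changes and with a match (Dut, Tyms, Tspan33 and Rhag hold none of the letters searched for their list), in lower case with the matches to the letters searched for that list in capitals. Cdc20 (chr4:118437344-118437593, minus strand) and Mki67 (chr7:135716380-135716629, minus strand) stand for mitosis, Orc1 (chr4:108579204-108579453, plus strand) and Mcm5 (chr8:75109259-75109508, plus strand) for replication, and Trim10 (chr17:36869324-36869573, plus strand) and Kel (chr6:41704326-41704575, minus strand) for the erythroid genes:
Cdc20: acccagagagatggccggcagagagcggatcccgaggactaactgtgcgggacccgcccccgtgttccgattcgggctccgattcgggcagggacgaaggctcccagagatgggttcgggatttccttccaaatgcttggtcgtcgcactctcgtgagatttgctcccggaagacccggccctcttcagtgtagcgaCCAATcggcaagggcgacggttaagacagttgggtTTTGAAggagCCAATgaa
Mki67: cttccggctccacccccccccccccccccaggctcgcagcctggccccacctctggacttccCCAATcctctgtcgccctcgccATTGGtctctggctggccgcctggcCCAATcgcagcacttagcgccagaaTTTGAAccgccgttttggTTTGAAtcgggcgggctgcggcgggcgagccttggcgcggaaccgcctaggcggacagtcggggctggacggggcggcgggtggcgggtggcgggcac
Orc1: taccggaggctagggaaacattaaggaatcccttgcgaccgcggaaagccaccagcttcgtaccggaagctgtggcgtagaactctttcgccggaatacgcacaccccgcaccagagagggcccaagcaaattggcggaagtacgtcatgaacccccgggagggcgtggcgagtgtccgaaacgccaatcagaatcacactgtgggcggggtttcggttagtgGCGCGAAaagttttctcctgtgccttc
Mcm5: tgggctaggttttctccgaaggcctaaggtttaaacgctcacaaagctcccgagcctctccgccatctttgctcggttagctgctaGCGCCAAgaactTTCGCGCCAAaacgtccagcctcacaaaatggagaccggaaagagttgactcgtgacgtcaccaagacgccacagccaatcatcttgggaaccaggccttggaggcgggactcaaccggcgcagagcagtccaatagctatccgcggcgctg
Trim10: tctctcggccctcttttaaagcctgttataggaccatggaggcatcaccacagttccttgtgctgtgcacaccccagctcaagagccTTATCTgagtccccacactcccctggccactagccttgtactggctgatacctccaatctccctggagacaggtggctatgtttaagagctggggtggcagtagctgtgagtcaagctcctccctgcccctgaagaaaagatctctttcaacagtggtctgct
Kel: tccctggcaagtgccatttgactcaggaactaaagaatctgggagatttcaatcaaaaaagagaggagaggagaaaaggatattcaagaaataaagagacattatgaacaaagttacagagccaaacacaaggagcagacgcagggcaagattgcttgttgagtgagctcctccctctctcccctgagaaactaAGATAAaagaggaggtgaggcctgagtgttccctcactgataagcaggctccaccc

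Genes that assemble ribosomes in the nucleolus were higher in 35 of 47 cases (median 0.50). Their summed level was 2368, 2306, 2396, 2930 and 3211 CPM in the G-NHX9-21FGAA libraries and 2135, 2039, 1829, 1560 and 1522 CPM in the Empty libraries, without overlap and highest in libraries 4 and 5 of G-NHX9-21FGAA. Dkc1, which modifies ribosomal RNA, stood at 37.1, 32.5, 39.9, 58.2 and 59.3 CPM against 23.6, 15.8, 16.3, 13.1 and 14.2 CPM (2.73-fold, 1.45 ± 0.20, adjusted p = 3.62e-06), and Polr1b, a subunit of RNA polymerase I, at 18.5, 22.6, 20.3, 33.6 and 44.2 CPM against 14.4, 13.7, 12.8, 12.7 and 11.6 CPM (2.13-fold, adjusted p = 4.12e-05). Exons of Dkc1 overlap Mpp1 on the other strand. Npm1 and Ncl, abundant nucleolar proteins, were higher by 0.61 and 0.65 on the log2 scale. Of the 47 genes, 2 were called in libraries 1 to 3 alone, and in libraries 4 and 5 alone 44.

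Ribosomal proteins themselves did not follow. Of 78 genes of the cytosolic ribosome, edgeR called none, 1 higher and 5 lower had an unadjusted p under 0.05, and DESeq2 called 1 higher and 1 lower. Their median was -0.05, and 0.13 with library sizes in place of TMM. Of 77 mitochondrial ribosomal proteins 7 were higher and 3 lower, and of 62 translation factors 11 and 2 (14.7% and 12.5% of all genes). With library sizes in place of TMM 34 and 29 of them were higher and none was lower. The higher translation factors numbered 4 to 6 without G-NHX9-21FGAA library 4 or 5 or Empty library 4 or 5. Of 16 host genes of small nucleolar RNAs, 6 were higher, among them Gas5 (0.50) and Snhg1 (0.68), and Snhg11 was lower (-1.29), against 10 higher without TMM, 0 in libraries 1 to 3 and 9 in libraries 4 and 5.

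Counts of called metabolic genes are read against 14.7% higher and 12.5% lower among all genes tested. Synthesis of sterols and fatty acids had 17 of 30 genes higher (median 0.36), or 11 without Empty library 2. Idi1, an enzyme of isoprenoid synthesis, stood at 68.3, 69.6, 67.6, 67.4 and 64.4 CPM against 37.1, 32.5, 40.9, 30.3 and 23.0 CPM (2.06-fold, adjusted p = 7.78e-06), and Lss and Fasn rose by 0.95 and 0.86 on the log2 scale. In glycolysis and lactate transport 9 of 23 were higher (median 0.26, and 4 or 5 higher without library 4 of either group), led by the glucose transporter Slc2a3 at 338, 403, 338, 352 and 397 CPM against 177, 134, 159, 176 and 169.8 CPM (2.24-fold, adjusted p = 1.74e-06). Of the genes of serine and one-carbon metabolism and of ATF4 targets, 4 of 21 were higher, all of folate metabolism (Shmt1, Shmt2, Mthfd1 and Mthfd1l, at 1.36, 0.51, 0.93 and 0.80), and the 4 lower ones were the stress genes Atf5, Trib3, Ddit3 and Sesn2 (-1.38, -1.29, -0.99 and -0.69). Of the 13 genes of mitochondrial DNA edgeR called none, 3 had an unadjusted p under 0.05, all lower, and DESeq2 called 2 lower (median -0.36). Nuclear subunits of oxidative phosphorylation were higher in 4 and lower in 9 of 81 cases (median -0.10, and 0.08 without TMM), a lower share no greater than that of all genes. With library sizes in place of TMM 15 of these were higher and 3 lower, and the lower count was 4 or 5 without G-NHX9-21FGAA library 1 or 5 or Empty library 1, 2 or 3.

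Since NUP98 is itself a nucleoporin, nucleoporins and nuclear transport receptors were looked at as a group, and 26 of 53 were higher and 1 was lower (median 0.28), against 41 higher without TMM and 2 higher in libraries 1 to 3 alone. Nup107, Nup85 and Nup155 were higher by 0.78, 0.78 and 0.55 on the log2 scale, as was the export receptor Xpo1, which binds FG motifs, by 0.38, and Nup62, an FG nucleoporin of the central channel, was lower (-0.27, adjusted p = 0.0415). Exons of Nup62 overlap those of Atf5, itself lower, on the other strand, so that its count is uncertain. Among 40 chromatin regulators of the MLL, Polycomb and acetyltransferase complexes 8 were higher, Psip1, Suz12 and Ezh2 among them (0.95, 0.51 and 0.50), and 2 were lower, with a median of 0.0027, against 15 higher and 0 lower without TMM and no calls in libraries 1 to 3. The BCL2 family had 7 of 17 lower, with Mcl1 at -0.50, Bcl2l1 at -0.37, Bcl2l11 at -0.72 and Bmf at -0.84. Targets of p53 were higher in 3 and lower in 4 of 21 cases. All counts in this paragraph are read against 14.7% higher and 12.5% lower among all genes tested, and those of the p53 targets lay near these shares. Interferon-stimulated genes gave no calls in edgeR or DESeq2 (27 tested, 2 lower with an unadjusted p under 0.05), with a median of -0.14, or 0.05 without TMM.

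**Figure D4:**
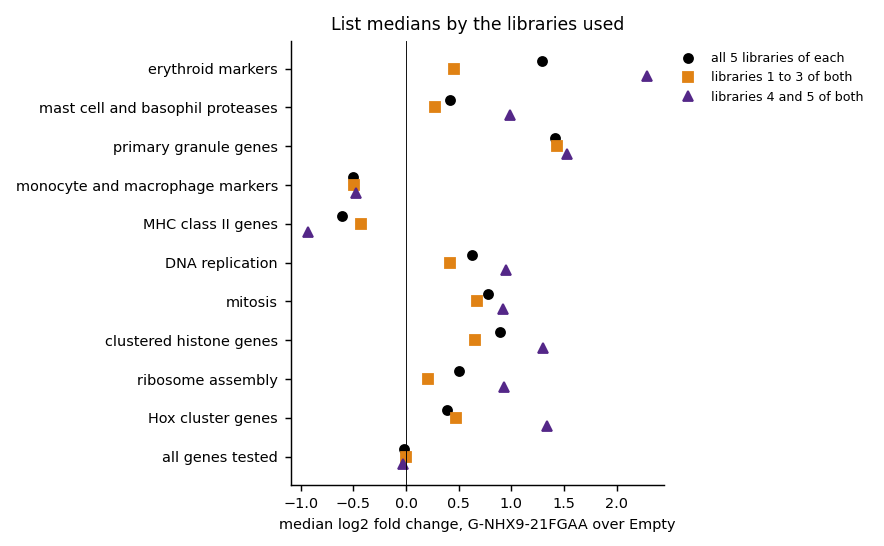
Median log2 fold change of G-NHX9-21FGAA over Empty (x axis) of 10 gene lists and of all genes tested, from all 5 libraries of each group (circles), from libraries 1 to 3 (squares) and from libraries 4 and 5 (triangles). The erythroid median is 0.46 in libraries 1 to 3 and 2.29 in libraries 4 and 5, while each list keeps the sign of its median.

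Direct comparisons with the other constructs, which were sorted on mEGFP like G-NHX9-21FGAA, gave fewer calls than the 4660 against Empty. Against G-NHX9-midi-21FGAA 517 genes were called (3.01%), or 1033 with the library number as a block and 210 to 318 without G-NHX9-21FGAA library 3 or 5 or G-NHX9-midi-21FGAA library 1, 3 or 4. Against G-NHX9-DDNA 178 were called (1.04%), or 103 at a mean of at least 1 CPM, 283 with the block and 281 with DESeq2. Against G-NHX9 2960 were called (17.2%), 1529 higher and 1431 lower, or 1997 and 1939 with the block. These comparisons share the G-NHX9-21FGAA libraries with the comparison to Empty, so their values are given side by side and not as independent of it. Epha3 stood at 2.77, 3.003, 4.91, 6.12 and 5.08 CPM in G-NHX9-midi-21FGAA, 1.53, 1.33, 1.58, 0.880 and 0.336 CPM in G-NHX9-DDNA and 2.95, 2.56, 2.41, 1.90 and 3.35 CPM in G-NHX9, and was higher in G-NHX9-21FGAA than in each (1.32 ± 0.32, 3.27 ± 0.35 and 2.06 ± 0.33 on the log2 scale, adjusted p = 0.0169, 4.48e-07 and 1.91e-05). Lifr was likewise above each of the 3 (1.71 ± 0.25, 1.92 ± 0.25 and 2.33 ± 0.26, adjusted p = 6.12e-05, 1.13e-05 and 2.73e-08), as was Tmem56 (1.18, 1.77 and 2.64). Cd34 had means of 135 ± 39.6, 55.8 ± 9.90 and 220.0 ± 12.9 CPM in these 3 conditions, and differed from G-NHX9-DDNA (1.88 ± 0.19, adjusted p = 1.21e-07). Its difference from G-NHX9-midi-21FGAA was 0.61 ± 0.18 (adjusted p = 0.0565, or 0.0306 with the library number as a block), and that from G-NHX9 was -0.10 ± 0.18 (adjusted p = 0.808). Chosen after its values had been seen, Pcolce2, which encodes an enhancer of procollagen processing, stood at 3.02, 3.19, 2.35, 6.59 and 3.56 CPM in G-NHX9-21FGAA and was above each of the 3 constructs (4.03 ± 0.50, 5.43 ± 0.58 and 1.42 ± 0.43, adjusted p = 7.27e-06, 4.48e-07 and 0.0194), and it had at most 1 read in any Empty library. Tek was higher than in G-NHX9-DDNA and G-NHX9 (2.81 and 3.57, adjusted p = 4.09e-05 and 1.32e-07). In G-NHX9-midi-21FGAA Tek stood at 1.06, 1.53, 1.31, 1.42 and 4.10 CPM, which overlapped its 1.82 to 5.97 CPM in G-NHX9-21FGAA.

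Of the 21 Hox genes tested, 5 were higher in G-NHX9-21FGAA than in G-NHX9-midi-21FGAA, 5 were higher and 2 lower than in G-NHX9-DDNA, and all 21 were lower than in G-NHX9. Of all 17166 genes tested, 341 were higher in the first of these comparisons, 147 higher and 31 lower in the second, and 1431 lower in the third. The filter on low counts took in all 7 conditions, so a gene near 0 elsewhere could enter the test through G-NHX9. The count of 21 is therefore partly set by the filter. Hoxc4, for one, stood at 0.0425, 0.0207, 0.117, 0.0845 and 0 CPM in G-NHX9-21FGAA and at 11.8 to 13.5 CPM in G-NHX9. Hoxa5 stood at 0.578, 0.746, 0.372, 0.671 and 0.497 CPM in G-NHX9-midi-21FGAA, 0.351, 0.374, 0.266, 0.119 and 0.515 CPM in G-NHX9-DDNA and 16.2, 10.8, 8.76, 9.74 and 14.9 CPM in G-NHX9 (differences of 1.29 ± 0.27, 2.09 ± 0.30 and -3.11 ± 0.26, adjusted p = 0.00632, 4.09e-05 and 1.16e-10). G-NHX9-21FGAA thus lay above both of the former and below G-NHX9. Hoxa9, in which reads from the construct are included, was lower than in G-NHX9-DDNA and in G-NHX9 (-2.53 ± 0.33 and -4.88 ± 0.37, adjusted p = 1.27e-05 and 6.66e-12), and higher than in G-NHX9-midi-21FGAA (1.57 ± 0.36, adjusted p = 0.0107). Meis1, Myb and Mef2c were higher than in G-NHX9-midi-21FGAA (0.78, 0.90 and 0.85, adjusted p = 0.0107, 0.00222 and 0.00291), and their differences from G-NHX9-DDNA were 0.38, 0.28 and 0.48 (adjusted p = 0.514, 0.764 and 0.247). Flt3 was lower than in G-NHX9 (-5.01 ± 0.30, adjusted p = 4.26e-14), as was Pbx3 (-2.61 ± 0.14, adjusted p = 5.13e-15).

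Counts in this paragraph are read against all 17166 genes tested. Of these, 3.01% were called against G-NHX9-midi-21FGAA (341 higher and 176 lower) and 1.04% against G-NHX9-DDNA (147 and 31). Against G-NHX9, 17.2% were called (1529 higher and 1431 lower). A short list without calls against G-NHX9-midi-21FGAA or G-NHX9-DDNA thus lay near the share of all genes. Primary granule genes were higher than in G-NHX9-midi-21FGAA for 5 of 6 genes. Mpo stood at 98.1, 132, 159.7, 62.6 and 61.3 CPM there (1.86 ± 0.38, adjusted p = 0.00454), at 424, 500.3, 366, 268 and 611 CPM in G-NHX9-DDNA (-0.22 ± 0.37, adjusted p = 0.996) and at 288, 255, 245, 234 and 300.3 CPM in G-NHX9 (0.50 ± 0.37, adjusted p = 0.439). Against G-NHX9-DDNA edgeR and DESeq2 called none of the 6, of which 1 had an unadjusted p under 0.05. Genes of mitosis, which moved widely against Empty, were not called between constructs. In this list none of the 37 genes was called by edgeR or DESeq2 against any of the 3, and none had an unadjusted p under 0.05, with medians of 0.11 against G-NHX9-midi-21FGAA, 0.01 against G-NHX9-DDNA and 0.11 against G-NHX9. For erythroid genes, none of 28 was called by either tool against G-NHX9-midi-21FGAA (1 lower with an unadjusted p under 0.05) or G-NHX9-DDNA (3 higher), whereas 23 were higher and 1 was lower than in G-NHX9. Among cytosolic ribosomal proteins 49 of 78 were lower than in G-NHX9, or 63 with the library number as a block. Among mast cell and basophil proteases 10 of 11 were higher than in G-NHX9, Mcpt1 by 4.53 ± 0.68 (adjusted p = 7.02e-06), as were 16 of 17 megakaryocyte and platelet genes.

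**Figure D5:**
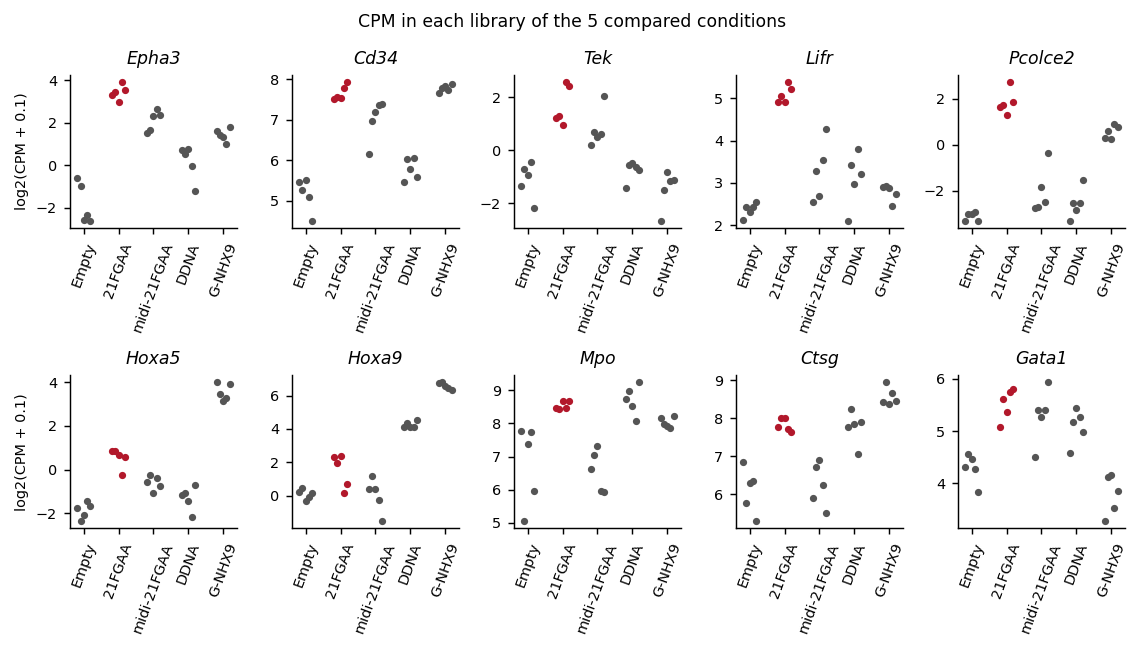
Log2 of CPM + 0.1 (y axis) of 10 genes in each library of Empty, G-NHX9-21FGAA (red), G-NHX9-midi-21FGAA, G-NHX9-DDNA and G-NHX9 (x axis), with libraries 1 to 5 from left to right. Epha3, Lifr and Pcolce2 are highest in G-NHX9-21FGAA, Hoxa5 and Hoxa9 in G-NHX9, and Mpo is lower in Empty and G-NHX9-midi-21FGAA than in the other conditions.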

How the data were processed

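Total RNA from lin- HSPCs was sequenced as paired-end reads on a NovaSeq after TruSeq Stranded Total RNA preparation. The deposited file holds raw read counts per gene, 49671 genes by 35 libraries, which the authors made with STAR 2.7.0d and HTSeq 0.11.2 on mm10 and tested with DESeq2, per the submitters' processing notes. The annotation and the strand setting are not given in the sources used here. Columns were matched to samples by their labels, and groups were taken from the genotype label. No column of another sample was present.

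Genes were filtered with filterByExpr (17166 kept, holding 99.96% of the counts), scaled by TMM (factors 0.899 to 1.11) and tested with edgeR 4.0.16 (quasi-likelihood, R 4.3.3) in a fit to all 35 libraries with 1 mean per condition. Adjustment followed Benjamini and Hochberg over the genes of a comparison, and adjusted values under 0.05 were called. SE was the log2 fold change divided by the square root of F. Library totals were 31559914 to 75810659 counts. On simulated data for this comparison (16873 genes, 200 of them changed), the test recovered 62.7% of genes changed 1.5-fold, 92.5% of those changed 2-fold and all changed 4-fold, with 12 false calls (6.59% of calls). DESeq2 1.42.0 and the other alternatives named under the limits below were run in addition.

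The members and the gene lists were chosen with earlier results of these data known. Named genes are those from which the construct is made, those the study names and the CD11b and Gr1 genes, the 12 highest and 12 lowest log2 fold changes among called genes that averaged 5 CPM or more without overlap, the 5 largest rises and falls in CPM, and up to 6 called members of each list with the largest change and a mean of at least 1 CPM. A few further members were named for their role with their values known, as was Pcolce2. Some genes that this rule names are not reported here.

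Same-numbered libraries of G-NHX9-21FGAA and Empty did not deviate together throughout (correlations of the deviations from the group means -0.0978 to 0.295). Those of G-NHX9-21FGAA and G-NHX9-midi-21FGAA (0.143 to 0.560) and of G-NHX9-21FGAA and G-NHX9 (0.189 to 0.568) did in every pair, so that the pairing there comes from the data and not from the labels. Those of G-NHX9-DDNA did not (-0.0226 to 0.513). Gene positions and overlaps were read from GENCODE M21 (GRCm38), and promoters from RefSeq (GRCm38.p6). Within G-NHX9-21FGAA and within Empty, no library was a copy of another within sampling noise. Other pairs of libraries were not checked.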

Additional observations from a re-analysis of the deposited data

Results flagged for a closer look

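In 7 of 178 groups of 5 libraries examined, 1 library lay apart from the other 4 by more than Dixon's 95% critical value (0.71), where chance gives about 1 in 20. Rpl12 stood at 617.6 CPM in G-NHX9-21FGAA library 1 against 676.6 to 695.9 CPM in the other libraries of that group. Cdc20 stood at 38.48 CPM in Empty library 1 against 21.76 to 25.74 CPM in the other Empty libraries. Cx3cr1 was likewise highest in Empty library 1, at 1.008 CPM against 0.3983 to 0.4897 CPM. Gfi1b was lowest in Empty library 5, at 3.122 CPM against 6.645 to 7.232 CPM, and so was Mecom, at 0.704 CPM against 1.309 to 1.527 CPM. In Empty library 2, Hoxa7 stood at 1.24 CPM against 0.3651 to 0.5203 CPM and Ly6c2 at 250.6 CPM against 307 to 326.2 CPM.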

How the results depend on the processing

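The count of 4660 called genes was 3293 to 6022 under the alternatives other than libraries 1 to 3 alone (library sizes without TMM 5534, RLE 4676, DESeq2 5038, a score of sex-linked transcripts 5701, the compared conditions alone 3827, a mean of at least 1 CPM 4415, no filter 3697, libraries labelled 8 weeks 3293, the library number as a replicate block 6022), among them 3430 to 4695 with 1 library left out. Higher and lower genes moved to 4543 and 991 without TMM, and lower genes to 1426 with no filter and to 1326 to 2115 with 1 library left out. In libraries 1 to 3 alone, chosen after seeing the data, 871 were called, 521 higher and 350 lower; fewer samples are part of that by construction, and the cause was otherwise not tested. The pairing behind the replicate block is no more than a shared number here, with 3 of 5 same-number correlations over 0.1 (mean 0.132, against -0.0317 for unlike numbers) and 2 libraries correlated best with their own number.

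Calls against G-NHX9-midi-21FGAA were 1033 with the replicate block, 885 with the sex score, 236 in the compared conditions alone, 776 with DESeq2 and 210 to 701 with 1 library left out. Those against G-NHX9-DDNA were 103 at a mean of at least 1 CPM, 283 with the block and 281 with DESeq2. The number of higher Hox genes was 2 at a mean of at least 1 CPM, 4 in the compared conditions alone and 2 in libraries 4 and 5. In the libraries labelled 8 weeks, 10 erythroid genes, 2 mast cell proteases and 8 histone genes were higher. In libraries 1 to 3, 0 erythroid genes, 2 mast cell proteases, 2 primary granule genes, 8 replication genes, 0 mitosis genes, 1 histone gene and 2 ribosome assembly genes were higher, and 4 monocyte and 1 MHC class II genes were lower. In libraries 4 and 5, 3 primary granule genes were higher. The cause of these moves was not tested. No single left-out library moved the count of one of these 10 lists by over 1.5 times.

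Of 230 called named genes, 182 were called in each fit that left out 1 library, and 67 under every other alternative, the fits of libraries 1 to 3 and of libraries 4 and 5 included. Itgam lost its call without G-NHX9-21FGAA library 4 or 5 or Empty library 1, 2 or 3 (adjusted p 0.0523 to 0.121), Trim10, Epb42 and Kel without G-NHX9-21FGAA library 4 (0.0769, 0.0992 and 0.0531), Klf4 without G-NHX9-21FGAA library 4 or 5 (0.0517 and 0.0574) and Elane without Empty library 2 or 5 (0.0583 and 0.0558). The direction turned only in genes that were not called. The log2 fold change of Rpl12 was -0.039 in the libraries labelled 8 weeks and -0.071 in libraries 1 to 3. That of Rps12 was -0.10 and -0.11 in these fits and -0.058 to 0.11 with 1 library left out (below 0 without Empty library 5). That of Ly6c1 was -0.095 to 0.22 with 1 library left out (below 0 without G-NHX9-21FGAA library 2 or 3) and -0.47 in libraries 4 and 5. That of Ly6g was 0.14 without TMM, 0.0090 with no filter, 0.18 in the libraries labelled 8 weeks, -0.18 to 0.17 with 1 library left out (above 0 without library 4 or 5 of either group), and 0.61 in libraries 1 to 3. Hox genes and other genes near 1 CPM are limited by depth.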

Other observations

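Counts in this section are read against 14.7% higher and 12.5% lower among all genes tested. Genes of leukocyte adhesion moved in both directions. Of 16 tested, Itga6 and Itga4, integrin chains of progenitors, were higher (0.77 and 0.50 on the log2 scale, adjusted p = 0.000455 and 0.0287 in edgeR), with Itga6 at a mean of 225 CPM in G-NHX9-21FGAA and 132 CPM in Empty and no overlap. Itgax, which encodes CD11c, and Selplg, a ligand of selectins, were lower (-0.75 and -0.53, adjusted p = 0.00327 and 1.86e-05), also without overlap. Itgad was called from few reads, at means of 0.141 and 0.0341 CPM. Of 6 subunits of the NADPH oxidase, which makes superoxide in phagocytes, 3 were lower, among them Cyba and Cybb (-0.65 and -0.43), and Ncf1 stood at 387 and 385 CPM (adjusted p = 0.981).

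Of 21 chemokines tested, Ccl17, Cxcl5, Ccl1 and Ccl8 were higher, the last 2 at means under 1 CPM, and Ccl6 was lower (-0.73, adjusted p = 0.00186). Without G-NHX9-21FGAA library 4 or without Empty library 5, 2 were higher. The summed level of all 22 chemokines listed, tested or not, went the other way. It was 5922 to 7989 CPM in G-NHX9-21FGAA and 9526 to 10782.5 CPM in Empty, without overlap. Among 13 feedback and target genes of STAT5, Csn2, Pim2 and Il2ra were higher (3.37, 1.11 and 1.38), Bcl6 and Bcl2l1 were lower (-0.88 and -0.37), and Cish and Socs2 stood at -0.26 and 0.17 and were not called. Without G-NHX9-21FGAA library 5, 1 of the 13 was higher. Beside Epha3, of 14 Eph receptors and ephrins Ephb6 and Efnb3 were higher and Epha2 lower, each from few reads, and without G-NHX9-21FGAA library 5 Epha3 was the 1 that was higher. Among guanylate-binding proteins 2 of 9 were lower, Gbp8 and Gbp11 (-2.04 and -0.97), and without 1 of G-NHX9-21FGAA libraries 2 and 5 or Empty library 3 Gbp11 was not called.

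In the unfolded protein response 4 of 21 genes were higher (Calr, Ero1l, Sdf2l1 and Manf) and 3 were lower (Ero1lb, Sel1l and Edem1), while by library sizes in place of TMM 13 were higher and none was lower. Of 15 immediate early and heat shock genes, Hsph1 was higher (0.76) and the near-identical copies Hspa1a and Hspa1b were lower (-1.25 and -0.99). Of 10 lymphoid genes, Lck was higher (1.48, adjusted p = 5.98e-06), at means of 2.43 and 0.866 CPM. Il7r was lower, and the median of the 10 was -0.04. The summed level of all 24 lymphoid genes listed, tested or not, was 163 to 279 CPM in G-NHX9-21FGAA and 291 to 398 CPM in Empty, without overlap.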
